A study of Mus musculus with 18 samples.

Results

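The Gimap genes (GTPases of immunity-associated proteins) encode a family of small GTP-binding proteins made mainly by lymphocytes. All 8 mouse symbols of the family, Gimap1, Gimap3, Gimap4, Gimap5, Gimap6, Gimap7, Gimap8 and Gimap9, were taken by name from the 23420 genes measured. Transcript levels came from RNA sequencing of splenic B cells. The mice were MRL/lpr, which carry a mutated Fas gene and develop autoimmunity. RNA was measured in 18 libraries that formed 6 groups of 3. B cells were purified with beads from mice of 5 to 7 weeks and cultured for 4 h. Per the methods text, mice of the first arm were 5 weeks old. In the first arm every mouse was female and Tlr7-/-. Its control genotype, Tlr9+/- Tlr7-/- in the sample titles, is called Tlr9het here, and its other genotype, Tlr997 Tlr7-/-, has a TLR9 whose signaling TIR domain comes from TLR7. Each was left unstimulated or given the TLR9 agonist CpG at 10 µg/ml. In the second arm every mouse was male, and its genotype, Tlr779 Tlr9-/-, has a TLR7 with the TIR domain of TLR9. These cells were left unstimulated or given the TLR7 agonist CL097 at 5 µg/ml. A control genotype for the second arm was not analysed here. For the control of the first arm the treatment protocol writes Tlr9-/- where the titles write Tlr9+/-; the titles were followed.

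GIMAP proteins bind GTP through a shared domain, and several sit on membranes of lysosomes, the endoplasmic reticulum or other compartments. They are known for their part in lymphocyte survival: animals without GIMAP5 lose T cells, and mice without GIMAP1 have few mature B and T cells. GIMAP6 binds a protein of the autophagy machinery, and GIMAP4 has been linked to the pace of T cell death.

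The 8 genes lie side by side on chromosome 6, from 48647234 to 48770851 (GRCm38, the assembly behind mm10, GENCODE M21), within 123618 bases. Their order is Gimap8, Gimap9, Gimap4, Gimap6, Gimap7, Gimap1, Gimap5 and Gimap3. Gimap6 and Gimap3 lie on the minus strand and the other 6 on the plus strand. Gimap1 (48739054 to 48743795) ends 2401 bases before Gimap5 (48746197 to 48754210) begins. A readthrough gene, Gm28053, overlaps Gimap7, Gimap1 and Gimap5 on the same strand, and Gimap1os overlaps Gimap1 on the opposite strand. Neither has a row in the files, and the strand setting of the authors' counting is not given in the sources used here, so reads of these overlaps cannot be assigned. Of the windows of 50 bases in the annotated transcripts of Gimap3, 7.52% also occur in Gimap5, and 4.53% of those of Gimap5 occur in Gimap3. No other pair of members shares such a window, so reads of Gimap3 and Gimap5 are the uncertain ones within the family.

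The 250 bases upstream of the RefSeq start sites are shown for the neighbors Gimap1 and Gimap5 and for Gimap4 and Gimap6, because within each of these pairs the members moved in opposite directions. Capitals mark AGGAAG or its reverse complement, a form of the motif of ETS factors, and TGTGGT or its reverse complement, a RUNX motif. Each sequence is from RefSeq, build GRCm38.p6, written 5′ to 3′ on the strand of its gene.
Gimap1 (chr6:48738797-48739046, plus strand): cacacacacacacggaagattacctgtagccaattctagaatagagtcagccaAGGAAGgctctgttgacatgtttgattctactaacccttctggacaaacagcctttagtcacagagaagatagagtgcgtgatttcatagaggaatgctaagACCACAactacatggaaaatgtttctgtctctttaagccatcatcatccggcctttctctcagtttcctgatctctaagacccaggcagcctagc
Gimap5 (chr6:48745947-48746196, plus strand): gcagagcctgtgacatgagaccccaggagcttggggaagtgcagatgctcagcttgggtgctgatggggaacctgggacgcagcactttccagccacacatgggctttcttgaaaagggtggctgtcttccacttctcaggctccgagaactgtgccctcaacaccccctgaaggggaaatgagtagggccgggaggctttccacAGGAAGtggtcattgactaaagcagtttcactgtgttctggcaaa
Gimap4 (chr6:48684328-48684577, plus strand): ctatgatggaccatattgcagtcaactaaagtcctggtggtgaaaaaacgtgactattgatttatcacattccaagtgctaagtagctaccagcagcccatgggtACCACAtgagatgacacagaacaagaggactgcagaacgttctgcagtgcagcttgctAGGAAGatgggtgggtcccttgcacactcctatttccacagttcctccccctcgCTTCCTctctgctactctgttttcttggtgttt
Gimap6 (chr6:48708245-48708494, minus strand): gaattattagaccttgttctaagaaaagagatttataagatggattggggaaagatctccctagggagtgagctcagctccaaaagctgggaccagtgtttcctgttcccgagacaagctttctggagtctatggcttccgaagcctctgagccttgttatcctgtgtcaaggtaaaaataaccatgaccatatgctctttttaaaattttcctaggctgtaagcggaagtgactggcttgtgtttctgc

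The Gimap4 window held AGGAAG on the plus strand 87 bases and on the minus strand 33 bases before the start, and the RUNX motif 145 bases before it. In the Gimap1 window the motifs began 197 and 95 bases before the start. Gimap5 had AGGAAG 45 bases before its start, and the Gimap6 window had neither string of letters exactly. Other forms of the ETS and RUNX motifs were not searched, so their absence cannot be read from this. Of 32851 RefSeq promoter windows of the same length, 29.5% held AGGAAG and 14% held TGTGGT, on either strand. An interferon response motif, GAAANNGAA, was in 7.13% of all windows and the NF-kB consensus in 7.25%, and the windows of the 8 genes held neither. These matches describe letters only.

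The files give log2 CPM, that is, counts scaled to a common library size on a log2 scale, after the authors' quantile normalization, with no counts, so the depth of each library is unknown. Within groups, the Pearson's r of replicates over genes lay between 0.944 and 0.989, and the lowest value involved replicate 3 of unstimulated Tlr997. All 10 markers of B cells, such as Ms4a1, were above 0 log2 CPM in every library. The T cell receptor chains Cd3d, Cd3e and Cd3g had group means between -2.74 and 1.55 log2 CPM. Tlr9 did not set the libraries labelled Tlr9-/- apart (7.24 ± 0.081 log2 CPM in unstimulated Tlr779 against 7.37 ± 0.10 in unstimulated Tlr9het, SD, n = 3 each), and a value per gene does not tell the allele's parts apart. Sex, genotype, agonist and the number of cells cultured per sample changed together between the arms, as did the age in the methods text, and cannot be told apart. In bulk samples, fewer cells of a type and less RNA per cell cannot be told apart either.

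To order the genes by level before stimulation, CPM was divided by the length of the annotated exons in kb and put on a log2 scale, since longer transcripts give more reads. In unstimulated Tlr9het cells Gimap6 was highest, at 7.28 ± 0.13 log2 CPM per kb, followed by Gimap4 at 6.86 ± 0.24 and Gimap3 at 5.97 ± 0.25 (SD, n = 3 each). Gimap8 (5.24 ± 0.13), Gimap1 (4.96 ± 0.11) and Gimap9 (4.80 ± 0.027) came next. Gimap5 (2.74 ± 0.16) and Gimap7 (2.73 ± 0.33) were lowest. In this order Gimap5 and Gimap7 did not differ beyond their spread, while each other pair of neighbors differed by more than the sum of their SDs. With the length of the longest transcript in place of all exons, Gimap1 (5.89) passed Gimap8 (5.47). By all exons, Gimap6 was first in all 3 unstimulated groups, followed by Gimap4 and Gimap3. By the longest transcript, Gimap1 (6.11) passed Gimap3 (6.0) in unstimulated Tlr779. In all 3 stimulated groups Gimap4 was first and Gimap6 next by either length.

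**Figure D1:**
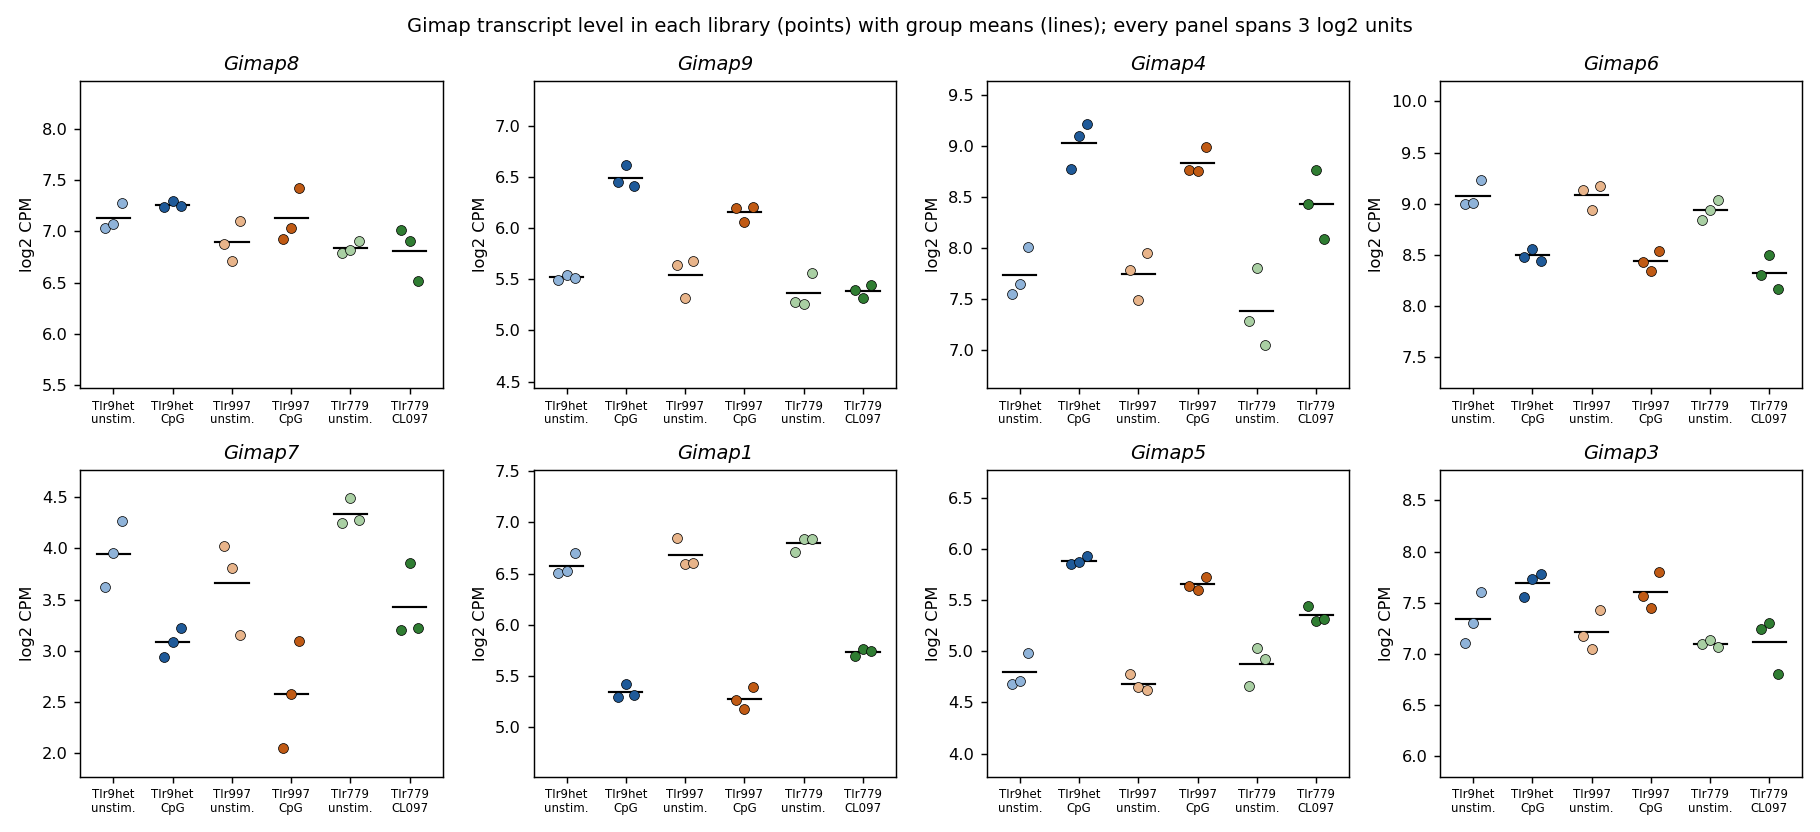
Level of each Gimap gene (vertical axis, log2 CPM, 3 log2 units in every panel) in the 18 libraries, grouped by genotype and stimulus on the horizontal axis, with points for libraries and lines for group means of 3. Gimap4 and Gimap5 sit higher, and Gimap6, Gimap7 and Gimap1 lower, in every stimulated library than in the unstimulated libraries of the same genotype, while Gimap9 rises with CpG in Tlr9het and Tlr997 and overlaps in Tlr779.

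The family split with CpG in Tlr9het cells. Gimap4, Gimap5 and Gimap9 rose, Gimap1, Gimap7 and Gimap6 fell, and Gimap3 and Gimap8 did not pass the test. All comparisons used limma with Benjamini-Hochberg adjustment over all genes tested, two-sided, and calls required a log2 fold change over 0.5 in either direction and an adjusted p under 0.05. Called higher were 3 of the 8 members, against 29.7% of the 11494 genes tested, and 3 of 8 were called lower, against 28.2% of those genes. The share of members called was thus near the share of all genes, and their median absolute log2 fold change was 0.92 against 0.72 over all genes tested.

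Gimap1 showed the largest decrease of the 8. Its level was 6.51, 6.52 and 6.70 log2 CPM in the unstimulated Tlr9het libraries and 5.30, 5.42 and 5.31 with CpG. The libraries did not overlap, and the log2 fold change was -1.24 (SE 0.087, adjusted p 2.2e-08 by limma). Its neighbor Gimap5, whose protein sits on lysosomal membranes, was at 4.68, 4.71 and 4.98 log2 CPM unstimulated and at 5.86, 5.88 and 5.93 with CpG. It rose without overlap by 1.09 (SE 0.087, adjusted p 7.6e-08 by limma). The difference of the pair, Gimap5 minus Gimap1, went from -1.78 ± 0.058 to 0.55 ± 0.083 log2 units (SD, n = 3 each). This difference was not corrected for length, so its change and not its sign can be read. Per kb of exons with CpG, Gimap5 was at 3.84 ± 0.037 and Gimap1 at 3.72 ± 0.068 log2 CPM per kb (SD, n = 3 each).

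Gimap4 was at 7.56, 7.65 and 8.01 log2 CPM in unstimulated Tlr9het libraries and at 8.78, 9.1 and 9.21 with CpG. This was the largest increase of the family, a log2 fold change of 1.29 (SE 0.14, adjusted p 2.2e-06 by limma). Gimap6 went from 8.99, 9.01 and 9.24 to 8.48, 8.56 and 8.44 log2 CPM. Its decrease of -0.59 log2 units (SE 0.080, adjusted p 1.6e-05 by limma) was the smallest of the called changes, and its libraries did not overlap. Gimap9 was at 5.49, 5.55 and 5.52 log2 CPM unstimulated and at 6.45, 6.62 and 6.41 with CpG, and its rise was 0.98 (SE 0.093, adjusted p 4.7e-07 by limma). The 3 unstimulated values of Gimap9 lay closer together than those of any other member in that group.

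Gimap7, whose protein is an active GTPase as a dimer, had the lowest level and the widest error. It was at 3.62, 3.96 and 4.27 log2 CPM unstimulated and at 2.94, 3.09 and 3.22 with CpG. The groups did not overlap, and the log2 fold change was -0.86 (SE 0.27, adjusted p 0.011 by limma). Its call was lost when genes of low level were kept in the test (adjusted p 0.059) and when replicate 3 of unstimulated Tlr9het was left out (log2 fold change -0.70, adjusted p 0.054). Gimap3 changed by 0.36 (SE 0.13, adjusted p 0.025 by limma), under the fold threshold, from 7.1, 7.3 and 7.60 to 7.56, 7.74 and 7.78 log2 CPM, with an overlap of 1 unstimulated library. Gimap8, the longest protein of the family with several GTP-binding domains, was at 7.04 to 7.28 log2 CPM unstimulated and 7.24 to 7.3 with CpG. Its log2 fold change was 0.13, with a 95% confidence interval from -0.13 to 0.40.

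**Figure D2:**
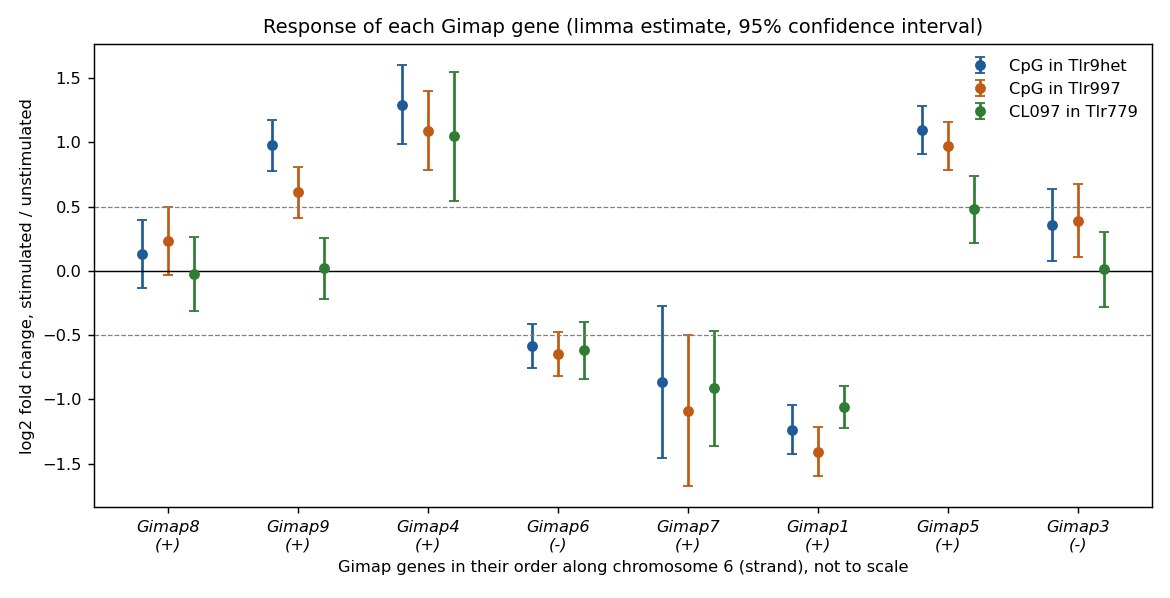
Log2 fold change of each Gimap gene (vertical axis, stimulated over unstimulated) as estimated by limma, in the order of the genes along chromosome 6 with their strand in brackets (horizontal axis, not to scale), for CpG in Tlr9het, CpG in Tlr997 and CL097 in Tlr779; bars are 95% confidence intervals and dashed lines the fold threshold of 0.5. The intervals of Gimap6 and Gimap1 lie below 0 and those of Gimap4 and Gimap5 above 0 in all 3 responses, whereas the CL097 interval of Gimap9 spans 0.

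In Tlr997 cells, CpG moved the same 6 members in the same directions. Again 3 of 8 were called higher (29.6% of all genes tested) and 3 of 8 lower (26.0%). The 2 genotypes were fitted together but have their own unstimulated libraries. Gimap1 went from 6.85, 6.60 and 6.61 to 5.26, 5.18 and 5.40 log2 CPM, a log2 fold change of -1.41 (SE 0.087, adjusted p 7.1e-09 by limma). Gimap5 went from 4.77, 4.65 and 4.62 to 5.64, 5.60 and 5.73, a log2 fold change of 0.97 (SE 0.087, adjusted p 2.9e-07 by limma). The libraries of each gene did not overlap, and the difference Gimap5 minus Gimap1, again without a correction for length, went from -2.0 ± 0.068 to 0.38 ± 0.045 log2 units (SD, n = 3 each). Per kb of exons with CpG, Gimap5 was at 3.60 ± 0.064 and Gimap1 at 3.66 ± 0.11 log2 CPM per kb (SD, n = 3 each), within their spread.

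Gimap4 was at 7.79, 7.49 and 7.96 log2 CPM in unstimulated Tlr997 libraries and at 8.76, 8.76 and 8.99 with CpG, a rise of 1.09 (SE 0.14, adjusted p 1.3e-05 by limma). Gimap6 was at 9.14, 8.94 and 9.18 unstimulated and at 8.43, 8.35 and 8.54 with CpG, a log2 fold change of -0.65 (SE 0.080, adjusted p 7.0e-06 by limma). Neither gene overlapped between the groups. Gimap9 was at 5.64, 5.32 and 5.68 unstimulated and at 6.20, 6.06 and 6.21 with CpG, a rise of 0.61 (SE 0.093, adjusted p 5.0e-05 by limma). Without replicate 2 of unstimulated Tlr997, its lowest library, the rise of Gimap9 was 0.498 and fell short of the fold threshold. Gimap7 had the largest spread, from 4.02, 3.81 and 3.15 to 2.05, 2.58 and 3.09 log2 CPM (log2 fold change -1.09, SE 0.27, adjusted p 0.0028 by limma), and its highest library with CpG lay just below its lowest library without. Gimap3 (log2 fold change 0.39, adjusted p 0.016) stayed under the fold threshold, and Gimap8 (log2 fold change 0.23, adjusted p 0.10) did not pass the test.

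Whether the TIR domain of TLR9 bears on the family was tested by comparing Tlr997 with Tlr9het. Before stimulation 0 of 8 members were called by limma, and 0 had an unadjusted p under 0.05, against 1237 of the 11494 genes tested. Over all genes tested, 0.0174% were called higher and 0% lower. The largest difference in size was that of Gimap7, -0.29 with a 95% confidence interval from -0.88 to 0.30, and the narrowest interval, that of Gimap6, ran from -0.17 to 0.18.

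With CpG, 0 of 8 members were called between the genotypes, against 1.26% of all genes called higher and 1.47% called lower. By limma 2 of 8 members had an unadjusted p under 0.05, as did 2187 of the 11494 genes tested. Gimap9 was at 6.06 to 6.21 log2 CPM in Tlr997 and at 6.41 to 6.62 in Tlr9het, without overlap. Its difference of -0.34 log2 units (SE 0.093, adjusted p 0.050 by limma) was under the fold threshold. Gimap5 was also lower in every Tlr997 library with CpG (5.60 to 5.73) than in every Tlr9het library with CpG (5.86 to 5.93), a difference of -0.23 log2 units (adjusted p 0.16 by limma). The difference of the CpG responses, Tlr997 minus Tlr9het, was called for 0 of 8 members, against 0.687% of all genes higher and 0.853% lower. Gimap9 had the smallest unadjusted p of the 8 for this difference, with -0.37 log2 units (SE 0.13, p 0.015, adjusted p 0.19 by limma, 95% confidence interval -0.65 to -0.082). It was the 1 member of 8 with an unadjusted p under 0.05, against 1839 of the 11494 genes tested. For the other 7 members the intervals of the difference spanned 0, and the widest, that of Gimap7, ran from -1.05 to 0.61, so a difference of that size was not detectable here.

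In Tlr779 cells given CL097, which TLR7 senses, 1 of 8 members was called higher and 3 of 8 lower, against 22.7% and 23.6% of the 11082 genes tested. Gimap4 rose and Gimap1, Gimap7 and Gimap6 fell. Gimap1 went from 6.71, 6.84 and 6.84 to 5.70, 5.77 and 5.75 log2 CPM (log2 fold change -1.06, SE 0.071, adjusted p 1.1e-05 by limma). Gimap6 went from 8.84, 8.94 and 9.03 to 8.30, 8.49 and 8.16 log2 CPM (log2 fold change -0.62, SE 0.096, adjusted p 7.5e-04 by limma). Neither overlapped between the groups, nor did Gimap7, which went from 4.25, 4.49 and 4.28 to 3.20, 3.86 and 3.22 log2 CPM (log2 fold change -0.91, SE 0.19, adjusted p 0.0038 by limma).

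Gimap4 was at 7.29, 7.80 and 7.06 log2 CPM in unstimulated Tlr779 libraries and at 8.43, 8.76 and 8.09 with CL097. The rise of 1.05 (SE 0.22, adjusted p 0.0035 by limma) was near the size seen with CpG, and replicate 2 was the highest of the 3 both without and with CL097. Its call was lost when genes of low level were kept in the test (adjusted p 0.058). Gimap5 was at 4.66, 5.03 and 4.92 log2 CPM unstimulated and at 5.44, 5.30 and 5.32 with CL097. It did not overlap, and its log2 fold change of 0.48 (SE 0.11, adjusted p 0.0069 by limma) passed the adjusted p but fell short of the fold threshold. When replicate 2 or replicate 3 of unstimulated Tlr779 or replicate 2 with CL097 was left out, it passed both, with 0.56, 0.502 and 0.504.

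Gimap9, which rose with CpG, was at 5.28, 5.26 and 5.56 log2 CPM in unstimulated Tlr779 libraries and at 5.39, 5.32 and 5.44 with CL097. The groups overlapped, and the log2 fold change was 0.02 with a 95% confidence interval from -0.22 to 0.26. Gimap3 (log2 fold change 0.01, interval -0.28 to 0.30) and Gimap8 (-0.03, interval -0.31 to 0.26) also overlapped.

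A difference of responses between the arms was tested in all 18 libraries after these values had been seen. The CL097 response in Tlr779 minus the CpG response in Tlr9het was called lower for 2 of 8 members and higher for 0, against 9.34% and 10.9% of the 11676 genes tested. For Gimap9 it was -0.96 log2 units (SE 0.14, adjusted p 9.4e-05 by limma), and for Gimap5 it was -0.62 log2 units (SE 0.14, adjusted p 0.0029 by limma). Against the CpG response in Tlr997, 1 of 8 was called lower and 0 higher, against 6.83% and 7.99% of all genes. This was Gimap9, at -0.59 log2 units (SE 0.14, adjusted p 0.0059 by limma), while Gimap5, at -0.495 (adjusted p 0.016 by limma), was under the fold threshold. Without replicate 2 of unstimulated Tlr997 or replicate 3 of unstimulated Tlr779, the Gimap9 difference was -0.48 and -0.49, also under that threshold. For Gimap4 and Gimap6 the differences between CL097 and CpG were not called, with 95% confidence intervals of -0.82 to 0.33 and -0.30 to 0.23 against Tlr9het. Since agonist, genotype, sex and cell number all differ between the arms, these differences cannot be assigned to any of them.

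**Figure D3:**
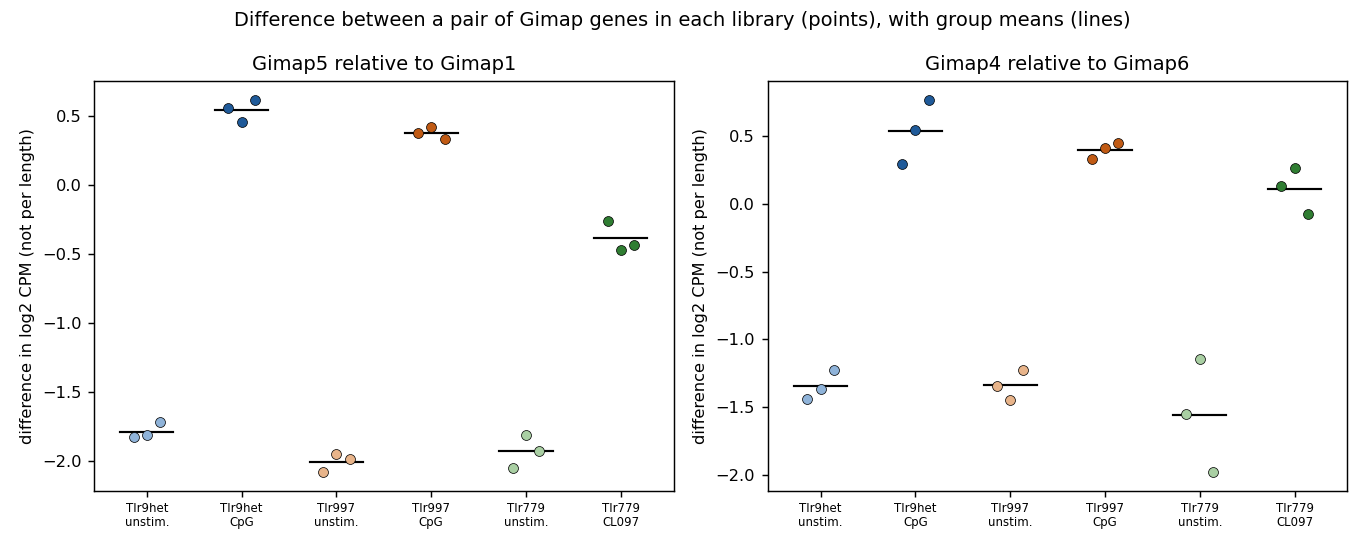
Difference in log2 CPM between Gimap5 and Gimap1 (left) and between Gimap4 and Gimap6 (right) in each of the 18 libraries, by group, with points for libraries and lines for means of 3; levels are not corrected for length, so the change between groups and not the sign can be read. Gimap5 minus Gimap1 lies between -2.08 and -1.72 in the 9 unstimulated libraries, between 0.33 and 0.62 with CpG and between -0.47 and -0.26 with CL097.

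With CL097 the difference Gimap5 minus Gimap1, without a correction for length, rose from -1.93 ± 0.12 to -0.39 ± 0.11 log2 units (SD, n = 3 each). On the same scale Gimap4 minus Gimap6 went from -1.34 ± 0.11 to 0.54 ± 0.24 with CpG in Tlr9het, from -1.34 ± 0.11 to 0.40 ± 0.060 with CpG in Tlr997 and from -1.56 ± 0.42 to 0.11 ± 0.17 with CL097 in Tlr779 (SD, n = 3 each).

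Levels summed over the family were given in CPM without a correction for length, so that longer transcripts weigh more. The 8 genes together gave 1247 ± 144 CPM in unstimulated Tlr9het and 1448 ± 103 with CpG, 1219 ± 122 and 1310 ± 124 in Tlr997, and 1117 ± 63.5 and 1073 ± 156 in Tlr779 without and with CL097 (SD, n = 3 each). Libraries of stimulated and unstimulated groups overlapped in each genotype. Within a replicate number, the sum was higher with CpG in 3 of 3 in Tlr9het (1141 to 1328, 1190 to 1505 and 1411 to 1509 CPM). In Tlr997 the pairing by replicate number was not settled. By number its sum went from 1254 to 1257, from 1084 to 1221 and from 1319 to 1451 CPM. With CL097 it went from 1051 to 1089, from 1177 to 1220 and from 1123 to 909 CPM. Gimap6 supplied 43.6% ± 1.0 of the sum in unstimulated Tlr9het and 25.0% ± 1.9 with CpG, and Gimap4 supplied 17.2% ± 0.95 and 36.3% ± 3.2 (SD, n = 3 each). In Tlr779 the share of Gimap4 was 15.2% ± 3.6 without and 32.4% ± 2.9 with CL097 (SD, n = 3 each).

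**Figure D4:**
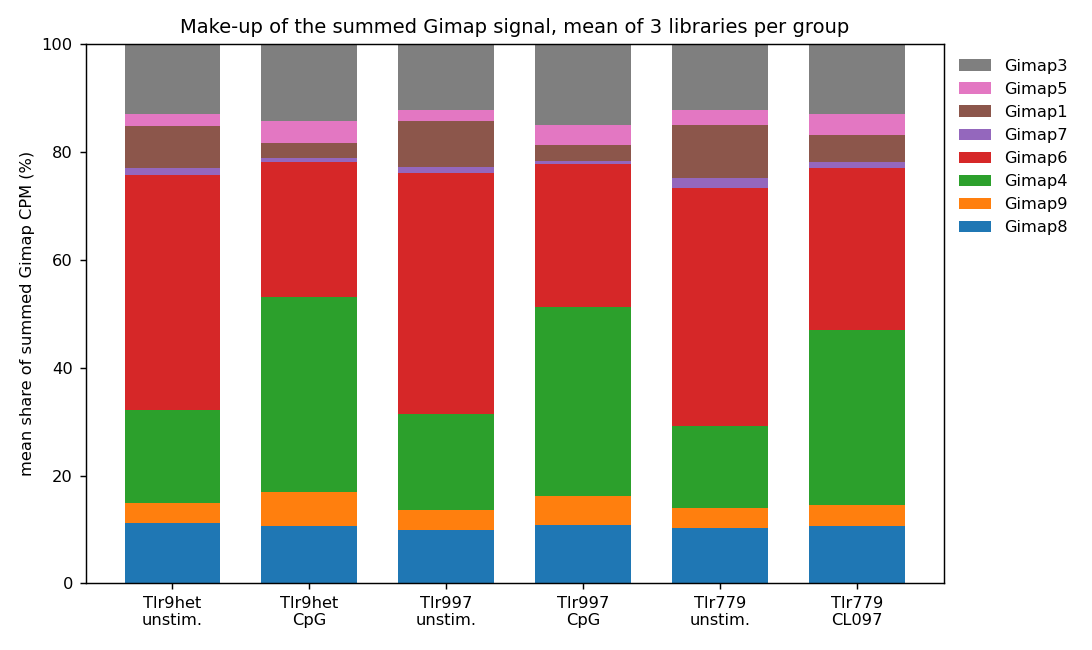
Mean share (vertical axis, percent) of each Gimap gene in the summed Gimap CPM of a library, for the 6 groups of 3 libraries (horizontal axis), as stacked bars in the order of the genes along the chromosome, without a correction for length. Gimap6 makes up 43.6% of the bar in unstimulated Tlr9het and 25.0% with CpG, and Gimap4 17.2% and 36.3%.

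Across the 18 libraries the members fell into patterns that follow these responses. These libraries share 6 groups and a common normalization, so the coefficients are descriptions. Gimap1 and Gimap5 had a Pearson's r of -0.92, Gimap4 and Gimap5 one of 0.91 and Gimap6 and Gimap1 one of 0.88. Gimap8 and Gimap3, the members that CpG changed least, had an r of 0.90. The 5 genes outside the family whose levels were most like the mean of the 8 centred members were Xylt2 (r 0.77), Ankrd40 (0.77), Ttc32 (0.76), Bnip1 (0.74) and Crlf2 (0.74), over 18 libraries. That mean mixes members that rose with members that fell.

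A list of 14 partners and survival genes was read beside the family, and not all of its genes are known to act with it. The list holds ATG8 proteins of autophagy, among them the GIMAP6 partner Gabarapl2, and the autophagy genes Sqstm1 and Becn1. Members of the BCL2 family of apoptosis regulators, the kinase Gsk3b and the chaperone Hspa8 make up the rest. All 14 were tested in each comparison. With CpG in Tlr9het, 4 were called higher and 5 lower, against 29.7% and 28.2% of all genes tested. Their median log2 fold change was -0.15 against 0.04 over all genes. In Tlr997 4 were called higher and 6 lower with CpG, against 29.6% and 26.0% of all genes. With CL097 in Tlr779 4 were called higher and 5 lower, against 22.7% and 23.6%. Gabarapl2 fell in each, with log2 fold changes of -0.70, -0.76 and -0.79 in Tlr9het, Tlr997 and Tlr779, as did its relative Gabarap (-1.08, -1.22 and -0.64). The survival factors Bcl2 (1.86, 1.5 and 1.54) and Bcl2l1 (4.51, 3.93 and 2.95) rose in all 3, and Mcl1, of the same family, fell (-1.21, -0.74 and -1.04). The death effector Bax rose by 0.88, 0.69 and 0.56. Hspa8 rose by 1.14, 1.12 and 0.69, and Gsk3b had log2 fold changes of -1.06, -1.13 and -0.87.

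A list of 11 genes of naive lymphocytes, which hold regulators of quiescence and of homing to lymph nodes, was also mixed. With CpG in Tlr9het 4 were called higher and 5 lower, against 29.7% and 28.2% of all genes tested. In Tlr997 2 were called higher and 7 lower, against 29.6% and 26.0%. With CL097 3 were called higher and 7 lower, against 22.7% and 23.6%. The transcription factor Ets1 fell in Tlr9het, Tlr997 and Tlr779 (-3.56, -3.61 and -1.79), and the log2 fold changes of Klf2 were -2.26, -2.65 and -1.25. The egress receptor S1pr1 fell too (-2.67, -3.88 and -1.52). Ccr7, the chemokine receptor that guides cells into lymph nodes, rose by 1.27, 1.16 and 1.63.

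The genes that border the cluster within 250 kb on each side were described in the same way. Of 17 with a row in the files, 9 were tested in the first arm and 8 in Tlr779. With CpG in Tlr9het 2 were called higher and 3 lower, against 29.7% and 28.2% of all genes tested. In Tlr997 1 was called higher and 3 lower, against 29.6% and 26.0%. With CL097 1 was called higher and 5 lower, against 22.7% and 23.6%. Repin1, a zinc finger gene on the Gimap8 side, rose in all 3 (log2 fold changes 1.88, 1.71 and 1.37), and Zfp862, Atp6v0e2 and Lrrc61 on the same side fell in all 3. On the Gimap3 side, Tmem176b and Tmem176a were the genes tested in the first arm, and Tmem176b in Tlr779. Tmem176b rose with CpG in Tlr9het (0.93, adjusted p 0.015 by limma) and had log2 fold changes of 0.17 in Tlr997 and 0.76 in Tlr779 that were not called.

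T cells make the Gimap transcripts strongly, so T cell markers were read beside the family. Lck ranged over the 18 libraries from 5.46 to 6.62 log2 CPM, and the other 15 markers were summed without it. Their sum was 10.1, 27.8 and 26.1 CPM in unstimulated Tlr9het and 24.0, 59.2 and 59.4 with CpG, and 12.9, 25.1 and 8.22 and 23.8, 46.3 and 22.9 in Tlr997. All 15 group means were higher with CpG in Tlr9het and 13 of 15 in Tlr997. Of the 13 T cell markers tested in the first arm, Lck included, 2 were called higher in Tlr9het and 5 in Tlr997. Over all genes 29.7% and 29.6% were called higher. With the mean level of the T cell list as a covariate, 3 members were called higher and 3 lower with CpG in both genotypes. The log2 fold change was 1.27 for Gimap4 and 1.06 for Gimap5 in Tlr9het. Of the 11494 genes tested, 6416 were then called in Tlr9het and 6153 in Tlr997. The covariate itself moved with CpG, and the part of T cells in these changes was not tested. Of 6 NK cell markers tested in the first arm, 2 were called higher and 0 lower with CpG in Tlr9het. In Tlr997 3 were called higher and 1 lower. Over all genes 29.7% and 29.6% were called higher and 28.2% and 26.0% lower. Of 2 tested in Tlr779, 1 was called higher and 0 lower, against 22.7% and 23.6% of all genes. The part of NK cells was not tested either.

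In Tlr779 the T cell marker sum was lower with CL097 in 2 of 3 replicate numbers. It was 23.1, 6.36 and 11.1 CPM without and 21.2, 5.18 and 13.5 with CL097, and 5 of 15 group means were higher. Endothelial cells also express Gimap genes. Of 8 endothelial markers, 4, 5 and 5 had a higher group mean with stimulation in Tlr9het, Tlr997 and Tlr779. Their sum went from between 262 and 286 to between 209 and 225 CPM in Tlr9het. It went from between 253 and 287 to between 205 and 245 in Tlr997 and from between 261 and 293 to between 229 and 279 in Tlr779. Only 1 of the 8 was over 0 log2 CPM in every library, and the list reached 8.17, so this sum does not follow the list as a whole. Of the 4 tested in the first arm, 2 were called higher with CpG in Tlr9het and 3 in Tlr997, and 0 lower. Their median log2 fold changes were 1.31 and 1.67, and 29.7% and 29.6% of all genes were called higher. Of the 3 tested in Tlr779, 1 was called higher and 1 lower. The endothelial marker Emcn had group means between -5.05 and -4.46 log2 CPM. Cdh5 went from 0.49 to 1.00 with CpG in Tlr9het, from 0.22 to 1.64 in Tlr997 and from 0.67 to -0.61 with CL097. The part of endothelial cells in the Gimap levels was not tested. The sum of the 10 B cell markers fell from between 6830 and 7662 CPM to between 2284 and 2399 with CpG in Tlr9het, from between 6587 and 7298 to between 3478 and 4210 with CpG in Tlr997 and from between 6783 and 8584 to between 3021 and 3864 with CL097. With CpG the sums of the genotypes did not overlap, and Ms4a1 went from 10.05 to 9.31 log2 CPM in Tlr9het and from 10.16 to 10.57 in Tlr997. The part of these shifts in the Gimap levels, between the genotypes too, was not tested.

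**Figure D5:**
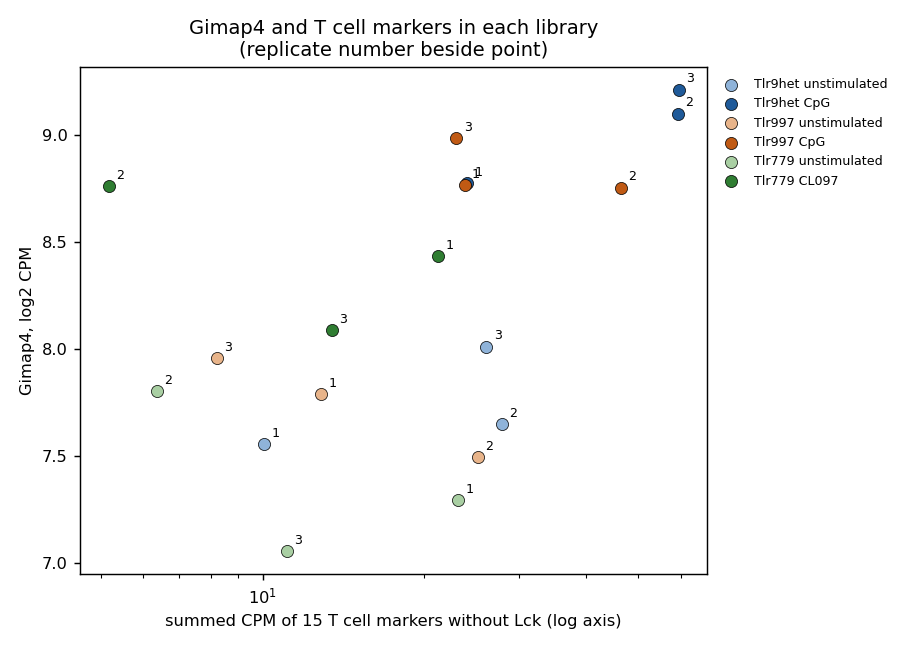
Gimap4 level (vertical axis, log2 CPM) against the summed CPM of 15 T cell markers without Lck (horizontal axis, log scale) in each of the 18 libraries, colored by group, with the replicate number beside each point. All 9 stimulated libraries lie above all 9 unstimulated libraries in Gimap4.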

How the data were processed

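RNA of 18 samples of splenic B cells was sequenced. Per the labels and the study's methods, the authors trimmed reads with Trim Galore 0.6.5, aligned them with STAR 2.6.1a to mm10, counted them per gene with featureCounts (Subread 2.0.1) and applied quantile normalization and voom before limma. Per sample the deposited table held log2 CPM for the same 23420 gene symbols each time, with 0 identical files and no counts, so that the depth is unknown and no counting interval was computed. Of 6614 genes under -4 log2 CPM throughout the 12 first-arm libraries, 6306 had a single value for each replicate number and 822 of these differed between the numbers, so an offset per number had been removed. The main limma fits did not account for this removal, so their standard errors and p-values may be too small.

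Genes with at least 3 of the fitted libraries over 0 log2 CPM were tested with limma 3.58.1 (R 4.3.3) on these log2 values, the variance being modelled as a trend on the level. The 12 libraries of the first arm were fitted jointly, 1 mean for each group, and the 6 Tlr779 libraries separately. P-values were adjusted by Benjamini-Hochberg over all genes tested, and genes were called at an adjusted p under 0.05 and a log2 fold change over 0.5, as in the study. Voom's offset understates the fold change of low genes. The procedure was tested on simulated data. Groups came from the sample titles. Gene positions and exon lengths came from GENCODE M21, promoter windows from RefSeq (GRCm38.p6).

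The named genes were the 8 members, 2 lists of related genes, the genes within 250 kb of the cluster and the 5 genes most like the family's mean. The members, the lists and the tests were chosen with earlier results of these data known. The test between the arms was added after seeing the data.

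The labels describe 3 mice per genotype, and they do not say that a replicate number marks a mouse. Over 11494 genes the deviations from the group means of samples with the same number correlated at 0.51, 0.29 and 0.51 in Tlr9het. In Tlr779 they correlated at 0.20, 0.42 and 0.28, and the numbers of both genotypes were read as pairs. In Tlr997 the values were 0.37, 0.083 and 0.025, and the pairing was not settled. The main limma tests did not use the pairing. Some genes of the lists are not reported here by name.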

Additional observations from a re-analysis of the deposited data

How the results depend on the processing

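The alternatives were no filter or a stricter filter on low values, other variance models, weights and scalings, all 18 libraries in 1 model, a replicate block, the T cell covariate, other fold thresholds and leaving out each library. No called change of a Gimap gene changed direction. A replicate block gave each number a single effect, shared by Tlr9het and Tlr997 in the first arm. It thus tied libraries of different genotypes, and those of Tlr997, whose pairing was not settled. With it 3 members were called higher and 3 lower with CpG in each genotype. With this block 1 was called higher and 3 lower with CL097 and 0 between the genotypes, and no call of a member changed. It called 6691 and 6456 of all genes with CpG in Tlr9het and Tlr997 and 5385 with CL097. Over all genes the difference of CpG responses was called for 177 genes, for 328 with the block within genotype and for 46 to 377 over the other settings, and the difference with CpG for 314 genes and for 74 to 680. Raising the fold threshold to 1 took the calls over all genes from 6650 to 4058 with CpG in Tlr9het, from 6388 to 3767 in Tlr997 and from 5134 to 2581 with CL097, and without the filter the 2 calls between the unstimulated genotypes fell to 0. With a fold threshold of 1, 2 members were called higher and 1 lower with CpG in Tlr9het, 1 higher and 2 lower in Tlr997, and 1 higher and 1 lower with CL097. With no fold threshold, 4 were called higher and 3 lower with CpG in each genotype, and 2 higher and 3 lower with CL097. At that setting 8353 and 8170 of the 11494 genes tested were called with CpG in Tlr9het and Tlr997. With CL097 6822 of 11082 were called. Also with no fold threshold, 1 member, Gimap9, was called lower when the CpG libraries of Tlr997 were set against those of Tlr9het. In that comparison 680 of the 11494 genes tested were called in either direction. With CL097, 0 members were called higher without the filter, 2 with array quality weights and between 1 and 2 when a library was left out. Without the filter 4639 genes were called in either direction, and with the weights 5208. The CL097 response minus the CpG response of Tlr997 was called lower for 2 members with the T cell covariate. It was called lower for 0 to 2 when a library was left out. With the covariate, 1474 of all genes were called in either direction. With the longest transcript as the length, levels per kb in unstimulated Tlr9het were 5.47 for Gimap8, 5.05 for Gimap9, 7.41 for Gimap6, 3.61 for Gimap7, 5.89 for Gimap1, 3.58 for Gimap5 and 6.24 for Gimap3. The sign of some uncalled differences turned. Between unstimulated genotypes these were Gimap9 (-0.10), Gimap4 (-0.094) and Gimap6 (-0.047) with array quality weights and Gimap6 with median scaling (-0.00067) and with the T cell covariate (-0.0091), and, for CL097, Gimap8 with array quality weights (0.014). With the T cell covariate the difference between CL097 and CpG turned for Gimap7 against Tlr9het (0.025) and for Gimap6 against Tlr997 (-0.025). When a library was left out, the unstimulated difference ranged from -0.040 to 0.14 for Gimap9, -0.10 to 0.14 for Gimap4, -0.043 to 0.081 for Gimap6 and -0.24 to 0.012 for Gimap3. The difference of CpG responses ranged from -0.050 to 0.20 for Gimap8, -0.48 to 0.041 for Gimap7 and -0.10 to 0.15 for Gimap3. The CL097 response ranged from -0.13 to 0.12 for Gimap8, -0.036 to 0.12 for Gimap9 and -0.080 to 0.17 for Gimap3. CL097 minus CpG in Tlr9het ranged from -0.12 to 0.046 for Gimap6 and -0.26 to 0.12 for Gimap7, and CL097 minus CpG in Tlr997 from -0.21 to 0.16 for Gimap4, -0.059 to 0.11 for Gimap6 and -0.091 to 0.43 for Gimap7. The cause of these changes was not tested.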
